A study of Mus musculus with 4 samples.

Results

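The 8 genes described here are the Hedgehog ligands Dhh and Shh, the receptor Ptch1, the membrane protein Smo that relays the signal, the transcription factors Gli1, Gli2, and Gli3, and Hhip, a membrane protein that binds the ligands. They were chosen by name as ligand and response genes of the pathway, out of the 31053 genes in the count matrices, and each of the 8 had at least 1 UMI in each of the 4 libraries. A UMI is a molecular tag that counts a captured transcript once, and levels are given as CPM, the UMIs of a gene per 1000000 UMIs of all genes in the summed cells of a library or a group.

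RNA of single mouse XY cells was measured in 4 libraries, 1 for each condition, to set cells induced from embryonic stem cells (ESCs) beside the cells of the embryonic testis. Gonads of ICR embryos gave the in vivo libraries E10.5, E11.5, and E12.5, named by embryonic day. The tissue of E10.5 took in dorsal mesenchyme around the gonad while the mesonephros had been removed from the later gonads. The fourth library, D6, held cells of ESC aggregates after 6 days of culture, enriched with magnetic beads for the human CD271 antigen driven by Nr5a1. The ESC line N271S9C, 1 line labelled C57BL/6J, although the methods describe its parent line as derived from a cross of 129X1/SvJ females with C57BL/6J males, carries the transgenes Nr5a1-hCD27a (the spelling of the label) and Sox9-2A-CGFP, a green fluorescent protein linked to Sox9. Its culture contained 14 μM CHIR99021 with BMP4 and EGF at the start. From day 2 it contained recombinant Sonic hedgehog protein at 30 ng/ml, with 3 μM retinoic acid, PD0325901, EGF, and BMP4. From day 4 the medium listed 20 ng/ml BMP4, FGF9, and 20 μM IWR1, and no Hedgehog protein. Kit version, strain, culture, and bead sorting all differ between D6 and the in vivo libraries and cannot be told apart from origin, and with 1 library per condition no difference between conditions could be tested.

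Hedgehog ligands are secreted proteins. In their absence, the receptor PTCH1 holds SMO inactive, and when a ligand binds PTCH1, SMO becomes active and the GLI factors switch on target genes. Ptch1, Gli1, and Hhip are themselves targets of the pathway, so that their transcripts are widely used as a readout of the response. In the fetal testis, Sertoli cells are known to make Dhh, and the interstitial cells around the cords, among them the precursors of fetal Leydig cells, are known to respond to it.

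The promoters of Dhh, the ligand of the testis, and of Ptch1 and Hhip, a receptor and an inhibitor that respond to it, are shown because the levels of these 3 genes carry most of the comparisons. The sequences are those of RefSeq on GRCm38.p6, the 250 bases before the RefSeq start of the gene, read 5′ to 3′ on the minus strand, with the core of the GLI site, CCACCC or its reverse complement GGGTGG, in capitals. The Dhh window is chr15:98898541-98898790, the Ptch1 window chr13:63565736-63565985, and the Hhip window chr8:80058009-80058258.
Dhh: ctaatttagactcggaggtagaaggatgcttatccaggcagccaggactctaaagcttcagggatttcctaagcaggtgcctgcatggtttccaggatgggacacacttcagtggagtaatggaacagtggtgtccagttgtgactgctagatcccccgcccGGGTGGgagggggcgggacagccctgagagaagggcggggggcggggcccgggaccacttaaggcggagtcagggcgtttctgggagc
Ptch1: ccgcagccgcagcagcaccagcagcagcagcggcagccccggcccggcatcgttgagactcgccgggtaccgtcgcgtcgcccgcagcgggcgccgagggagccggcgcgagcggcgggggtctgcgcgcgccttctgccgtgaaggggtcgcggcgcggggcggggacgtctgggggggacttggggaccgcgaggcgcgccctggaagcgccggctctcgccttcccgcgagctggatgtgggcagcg
Hhip: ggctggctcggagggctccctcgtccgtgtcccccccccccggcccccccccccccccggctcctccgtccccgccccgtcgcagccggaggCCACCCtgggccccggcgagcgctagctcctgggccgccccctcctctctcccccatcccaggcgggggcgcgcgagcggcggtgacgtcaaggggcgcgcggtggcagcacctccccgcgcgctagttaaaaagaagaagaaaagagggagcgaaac
Dhh and Hhip each held 1 such core and Ptch1 none. Of the 6 members with a promoter entry, 5 held the core (Dhh, Gli2, Gli3, Hhip, and Smo), and of all 32851 promoters 28.1% did. The windows of these 6 members held 9 to 41 CG dinucleotides, against a median of 6 over all promoters. The part of this base make-up in the count was not tested. The longer GLI motif GACCACCCA, searched on both strands over 300 bases, was in the promoters of 0 of the 6 members and in 0.253% of all promoters. A match is a description of the letters in the window, and its absence says only that the letters are not there. The Ptch1 window starts at another start site than the gene model used for its position below.

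On GRCm38, with GENCODE M21 gene models, Dhh lies on the minus strand at chr15:98891152-98898540, Shh on the minus strand at chr5:28456815-28467256, and Ptch1 on the minus strand at chr13:63508328-63573598. Gli1 lies on the minus strand at chr10:127329882-127341974, Gli2 on the minus strand at chr1:118834132-119053619, and Gli3 on the plus strand at chr13:15463235-15730026. Hhip lies on the minus strand at chr8:79965851-80058006 and Smo on the plus strand at chr6:29735503-29761365. Ptch1 and Gli3 thus share chromosome 13, and no other pair of the 8 genes shares a chromosome.

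The limits of the methods on detected genes and on UMIs of mitochondria left 3837 cells in the E10.5 library, 2101 in that of E11.5, 2764 in that of E12.5, and 2285 in that of D6. Values given 4 at a time below follow this order. The median depth was 8167, 11926, 10946, and 4607 UMIs per cell. Shares of cells with a UMI depend on this depth, so that they are also given after each cell was thinned at random to 2000 UMIs. All intervals are exact 95% intervals that cover counting error only, and not the variation between embryos or cultures. The libraries shared 41 cell barcodes over all pairs, all of them between in vivo libraries. The extraction label speaks of female tissue, while UMIs of 4 Y-linked genes were found in 55.7% to 80.5% of the cells of each library and Xist in 2 to 22 cells per library. Doublets were left in and scored, with 1.76% to 3.52% of the cells of a library marked.

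Cells were grouped by marker gates: at least 1 UMI of Sox9 or Amh, the genes of Sertoli cells; of Pdgfra, a receptor of interstitial and other mesenchymal cells; of Upk3b, a gene of the coelomic epithelium; and of Cyp11a1, an enzyme of steroid synthesis. The Sox9 or Amh gate held 790, 786, 994, and 321 cells. The Pdgfra gate held 917, 633, 1103, and 604 cells, the Upk3b gate 311, 308, 257, and 186, and the Cyp11a1 gate 2, 103, 44, and 298. A cell could be in several gates, and 219, 222, 289, and 90 cells were in both the Sox9 or Amh gate and the Pdgfra gate.

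The gates did not hold the same cells in every library. At E11.5 and E12.5, the Sox9 or Amh gate carried other Sertoli genes, with Ptgds at 195.6 and 780.0 CPM. At E10.5, Ptgds was found in 0.1% of its cells and Amh in 0.8%, while the sclerotome gene Pax1 was at 90.8 CPM inside the gate and 12.1 outside it. The gate of E10.5 is therefore called by its rule and not as Sertoli cells. At D6, Amh was found in 25.5% of the cells of the gate and the mesenchymal gene Nr2f2 in 81.9%. The Cyp11a1 gate of E11.5 and E12.5 overlapped the supporting cells, with Sox9 in 70.9% and 72.7% of its cells. At D6 the same gate carried steroidogenic genes, with Star at 549.6 CPM.

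Dhh was nearly absent at E10.5, was found almost wholly in the Sox9 or Amh gate of the later gonads, and was low at D6. Its level was 0.092 CPM in the E10.5 library (3 UMIs in 3837 cells), 32.8 in that of E11.5 (30.6 to 35.2), 56.3 in that of E12.5 (53.8 to 58.9), and 4.28 in that of D6 (3.19 to 5.63). These intervals do not overlap, and the order was E12.5, E11.5, D6, and E10.5. A UMI of Dhh was found in 0.078%, 15.1%, 19.6%, and 1.44% of the cells, and in 0, 5.23%, 8.47%, and 0.573% of the thinned cells. At E12.5, 327 cells held at least 3 UMIs of Dhh, against 126 at E11.5 and 4 at D6. The highest count in a cell was 12 at E12.5, 10 at E11.5, 5 at D6, and 1 at E10.5.

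**Figure D1:**
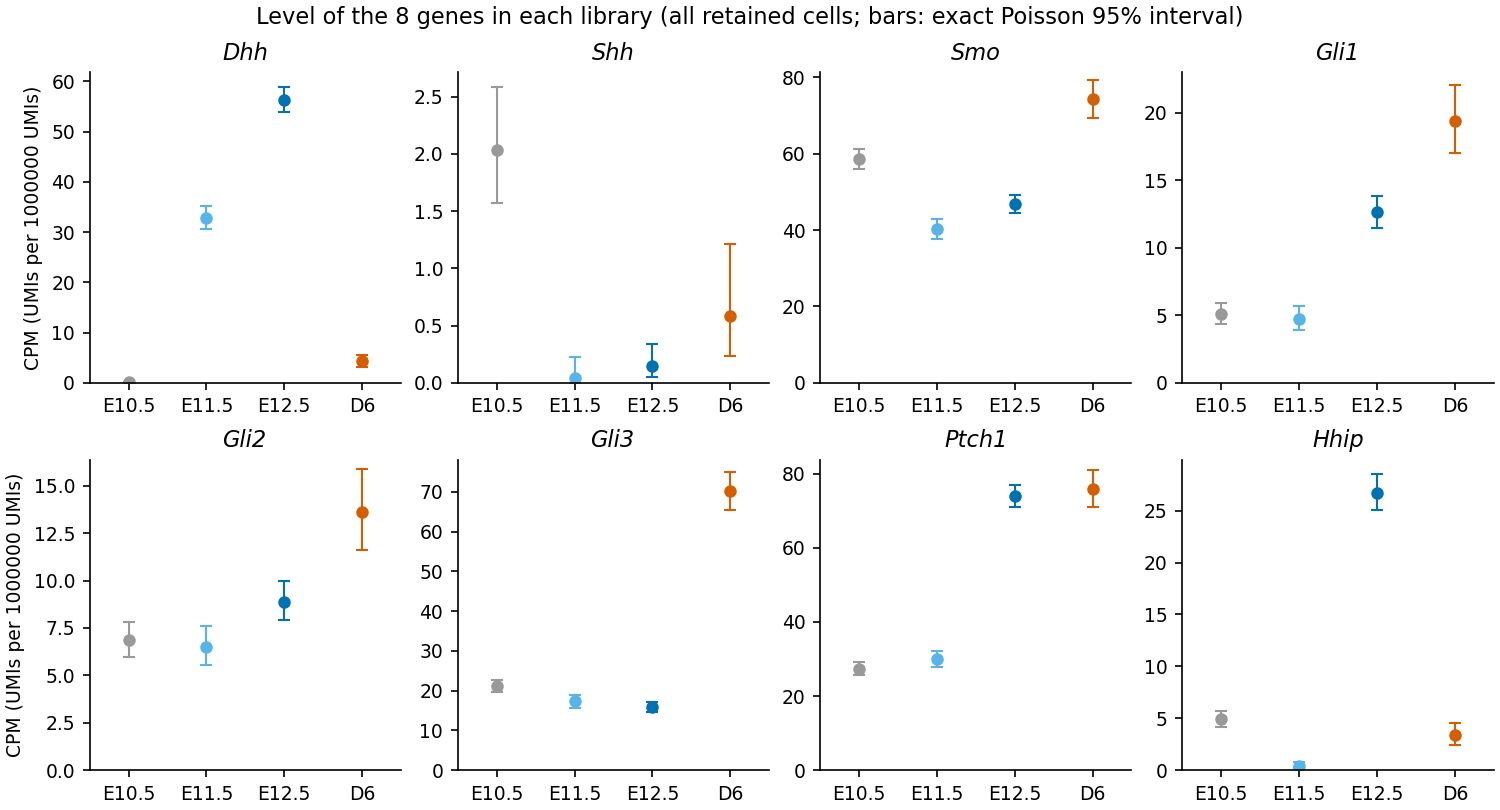
Level of each of the 8 genes in each library, in CPM on linear axes that start at 0; points are the summed counts of the cells kept in a library and bars the exact 95% Poisson interval of counting error. Dhh spans from 0.092 at E10.5 to 56.3 at E12.5 and Hhip from 0.406 at E11.5 to 26.7 at E12.5, whereas Gli3 stands apart at D6 (70.2).

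Nearly all Dhh of the in vivo gonad lay in the Sox9 or Amh gate, which held 97.6% of its UMIs at E11.5 and 99.1% at E12.5. There, Dhh was found in 38.4% of 786 cells at E11.5 and in 53.0% of 994 cells at E12.5, at 78.3 (73.0 to 84.0) and 161.4 (154 to 169) CPM. At E10.5, 0 of the 790 cells of the gate held a UMI. An allowance of 3 cells gives a share of up to 0.380%, and the exact upper limit was 0.466%. At D6, 6.85% of 321 cells held a UMI, at 20.4 CPM (14.5 to 27.9), and the gate held 76.5% of the Dhh UMIs of the library. In cells with germ cell markers, where Dhh is not known to be made, 6.14% of 228 cells held a UMI at E11.5 (median depth 16589) and 3.38% of 474 at E12.5 (median depth 18498), at 6.65 and 5.04 CPM. The level of the Sox9 or Amh gate was above that of these cells in both libraries. Cells with germ cell markers could also be in a gate, and their level is not a floor. In cells of no gate, Dhh was at 2.40 CPM (1.42 to 3.80) at E11.5 and 0.757 (0.346 to 1.44) at E12.5. In the Upk3b gate, Dhh was at 6.71 and 6.88 CPM at E11.5 and E12.5 (4.49 to 9.64 and 4.45 to 10.2). This was no higher than in the cells with germ cell markers, but above the cells of no gate. Cells of the Upk3b gate alone held 0 and 1 Dhh UMIs. At D6, Dhh was found in 0 of 186 cells of the Upk3b gate. In the small Cyp11a1 gate, most of whose cells held Sox9 in these gonads, Dhh was at 83.2 CPM (68.1 to 100.8) at E11.5 and 148.6 (118 to 185) at E12.5, in 35.0% of 103 cells and 61.4% of 44 cells. These intervals overlap those of the Sox9 or Amh gate.

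Within the gate, Dhh was highest in cells that held both Sox9 and Amh. In cells with UMIs of both Sox9 and Amh, Dhh stood at 165.1, 277.9, and 83.9 CPM in the E11.5, E12.5, and D6 libraries, and was found in 76.6% of 201 cells, 88.4% of 552 cells, and 34.0% of 53 cells. In cells with Sox9 and no Amh, it stood at 44.9, 8.42, and 3.68, and was found in 25.0% of 567 cells, 4.53% of 353 cells, and 0.418% of 239 cells. In cells with Amh and no Sox9, it stood at 77.0 (39.8 to 134), 58.3 (45.2 to 73.9), and 16.4 (3.39 to 48.0), in 18, 89, and 29 cells. At E11.5, the Sox9 cells without Amh were still 142 of the 302 cells of the gate with Dhh. At E12.5, the interval of the Sox9 cells without Amh (5.87 to 11.7) overlaps that of the cells with germ cell markers (3.68 to 6.75). It lies above those of cells of no gate (0.346 to 1.44) and of cells with Pdgfra and no Sox9 or Amh (0.314 to 1.61). This division of the gate was added after the data had been seen.

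Shh, the ligand of endoderm, notochord, and floor plate in the embryo, was at 2.03 CPM in the E10.5 library (66 UMIs), 0.041 in that of E11.5 (1 UMI), 0.146 in that of E12.5 (5 UMIs), and 0.588 in that of D6 (7 UMIs). At E10.5, 64 of the 66 UMIs were in the 188 cells with endoderm markers, of which 19.7% held a UMI. In the Sox9 or Amh gate of E11.5, 0 of 786 cells held a UMI of Shh, which allows a share of up to 0.382%. At D6, 7 of 7 UMIs were in cells with steroidogenic markers, and 5 of them in the Cyp11a1 gate. Those few UMIs were the only transcripts of this ligand in the library whose culture had received the protein. Ihh, the ligand of cartilage and gut, had 42, 1, 4, and 1 UMIs.

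Ptch1, the receptor and a target of the pathway, stood at 27.3 CPM in the E10.5 library (25.5 to 29.2), 29.9 in that of E11.5 (27.8 to 32.1), 73.9 in that of E12.5 (71.1 to 76.9), and 75.9 in that of D6 (71.1 to 81.0). The intervals of E10.5 and E11.5 overlap, as do those of E12.5 and D6, and the latter pair lay above the former. Ptch1 was detected in 17.2%, 22.6%, 45.7%, and 24.2% of the cells, and in 5.53%, 5.87%, 12.1%, and 12.2% of the thinned cells, which showed the same division into 2 pairs. From E11.5 to E12.5 the log2 ratio was 1.31 (1.19 to 1.43).

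The higher Ptch1 of E12.5 over E11.5 was found in each gate. Ptch1 went from 31.4 to 109.9 CPM in the Pdgfra gate, from 42.2 to 94.2 in the Sox9 or Amh gate, and from 15.3 to 37.7 in the Upk3b gate. The log2 ratios were 1.81 (1.62 to 2.01), 1.16, and 1.30. These gates share cells. In cells of no other gate, Ptch1 went from 31.1 to 105.4, from 50.4 to 72.2, and from 11.7 to 29.7 in the same order. Within the Sox9 or Amh gate, Ptch1 went from 35.8 (31.5 to 40.4) to 133.3 (122 to 145) in cells with Sox9 and no Amh. In cells with both genes it went from 59.4 (50.6 to 69.2) to 74.0 (67.5 to 80.9), with overlapping intervals. In cells with Amh and no Sox9 it went from 32.1 (10.4 to 74.8) to 67.7 (53.6 to 84.4), again with overlap. In the small Cyp11a1 gate it went from 46.0 (34.9 to 59.4) to 74.3 (53.1 to 101), with overlapping intervals. Cells with germ cell markers held 22.3 and 25.1 CPM, so that the Upk3b gate of E11.5 was not above the germ cells. At D6, Ptch1 stood at 92.2 in the Pdgfra gate, 93.3 in cells of no gate, 50.3 in the Sox9 or Amh gate, 49.1 in the Upk3b gate, and 28.5 in the Cyp11a1 gate. The Pdgfra gate and the cells of no gate do not differ within their intervals, nor do the Sox9 or Amh gate and the Upk3b gate. At E10.5, where the tissue took in mesenchyme outside the gonad, Ptch1 was at 53.7 (48.9 to 58.9) in the 1008 cells with splanchnic mesenchyme markers, of which 29.5% held a UMI, and 10.1% of the cells with mesonephric duct markers held one.

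Smo, which relays the signal and is not known as a target, was detected widely in every library. Its level was 58.5 CPM in the E10.5 library (55.9 to 61.2), 40.2 in that of E11.5 (37.8 to 42.8), 46.8 in that of E12.5 (44.6 to 49.2), and 74.2 in that of D6 (69.4 to 79.2), in the order D6, E10.5, E12.5, and E11.5 with no overlap of the intervals. In the gates of E12.5 it ranged from 44.6 in the Cyp11a1 gate to 85.0 in the Upk3b gate, with 66.4 in the Pdgfra gate and 46.7 in the Sox9 or Amh gate. In cells with germ cell markers it was 9.83 at E11.5 and 9.30 at E12.5, under every gate of those libraries.

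**Figure D2:**
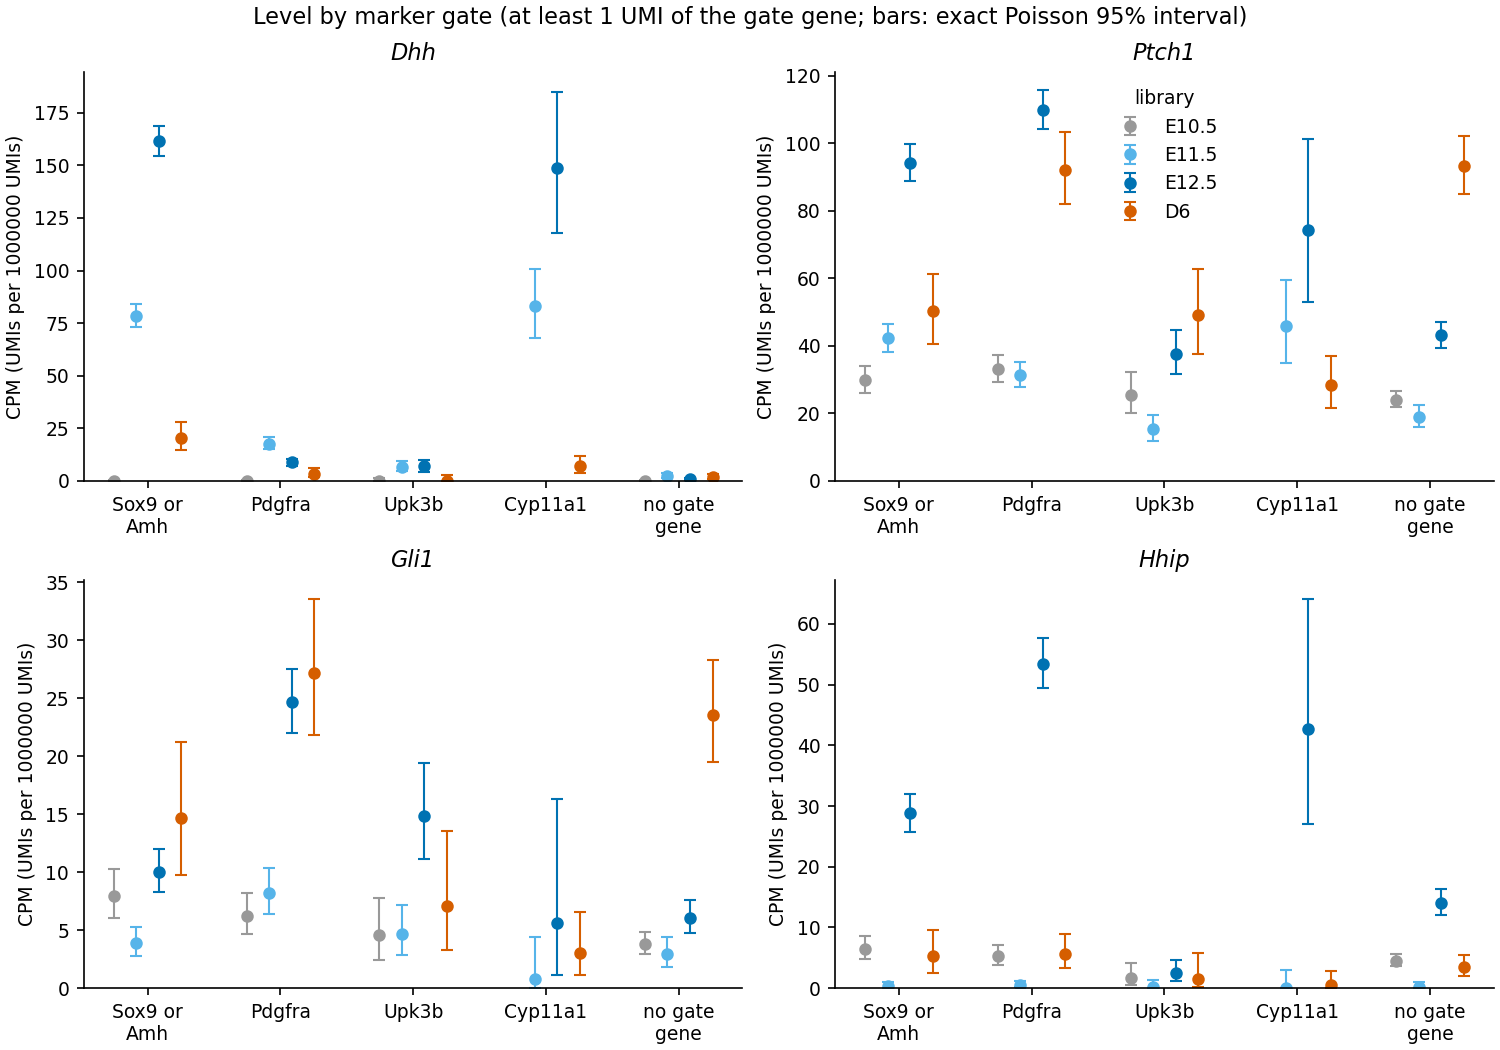
Level of Dhh, Ptch1, Gli1, and Hhip in each marker gate and in cells of no gate, in CPM with exact 95% Poisson intervals of counting error and a color for each library; the 2 Cyp11a1 cells of E10.5 are left out. Dhh is highest in the Sox9 or Amh gate of E12.5 (161.4), Ptch1 and Hhip in the Pdgfra gate of E12.5 (109.9 and 53.5), and Gli1 in the Pdgfra gate of D6 (27.2).

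Gli1, a transcriptional activator that is itself induced by the signal, stood at 5.11 CPM in the E10.5 library (4.36 to 5.94), 4.75 in that of E11.5 (3.93 to 5.69), 12.6 in that of E12.5 (11.4 to 13.9), and 19.4 in that of D6 (17.0 to 22.1). As for Ptch1, the intervals of E10.5 and E11.5 overlap, but D6 was above E12.5 without overlap. In the Pdgfra gate, Gli1 was at 6.24, 8.19, 24.6, and 27.2, with overlapping intervals at E12.5 (22.0 to 27.5) and D6 (21.8 to 33.5). In the Sox9 or Amh gate it was at 7.97, 3.87, 9.99, and 14.7. Germ cells held 0.583 and 1.57 at E11.5 and E12.5, below these gates.

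Gli2 and Gli3 bind the same sites as Gli1, and Gli3 is known mainly as a repressor in the absence of ligand. Gli2 was at 6.86, 6.50, 8.90, and 13.6 CPM. The intervals of E10.5 (5.99 to 7.82) and E11.5 (5.53 to 7.59) overlap, and those of E12.5 (7.92 to 9.95) and D6 (11.6 to 15.9) lie above them. Gli3 was at 21.1 (19.6 to 22.8), 17.3 (15.7 to 19.0), 15.9 (14.6 to 17.3), and 70.2 (65.5 to 75.1), with overlap between E11.5 and E12.5 only. Over all cells from E11.5 to E12.5, Gli3 alone among the 7 members with at least 50 UMIs had a log2 ratio whose interval included 0 (-0.13, -0.31 to 0.06). Its D6 level was above those of the 3 in vivo libraries in every gate, apart from the 2 Cyp11a1 cells of E10.5, and ranged from 44.1 in the Cyp11a1 gate to 88.2 in the Pdgfra gate.

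Hhip, which binds Hedgehog ligands and limits their spread, was near 0 at E11.5 and high at E12.5. It stood at 4.92 CPM in the E10.5 library (160 UMIs), 0.406 in that of E11.5 (10 UMIs), 26.7 in that of E12.5 (913 UMIs), and 3.36 in that of D6 (40 UMIs). Between E11.5 and E12.5 the log2 ratio was 6.04 (5.15 to 7.10), and 15.0% of the cells held a UMI at E12.5 against 0.476% at E11.5. No cell at E11.5 held more than 1 UMI of Hhip, and 127 cells at E12.5 held at least 3. In the Pdgfra gate, Hhip was at 5.28, 0.475, 53.5, and 5.63, and 27.2% of the 1103 cells of E12.5 held a UMI. The Upk3b gate was at 2.48 at E12.5 (1.13 to 4.70), which was not above cells with germ cell markers, at 3.36 (2.27 to 4.80). That level is not a floor, since some of these germ-marker cells also held a gate gene. The 413 of them in no gate held 4 Hhip UMIs. Among the cells of a marker list at E12.5, the highest level was 79.3 (63.0 to 98.6), in the 81 cells with steroidogenic markers. The 347 such cells of D6 held 1.29 (0.266 to 3.77), and their Ptch1 was at 34.8 against 81.3 at E12.5. At least 2 UMIs of Cyp11a1 were held by 10 cells at E12.5 and by 208 at D6. The steroidogenic list need not hold like cells in these libraries. Of the 167 UMIs in the 835 cells of no gate at E12.5, 156 were in the 377 cells with interstitial markers. The marker lists share cells. Of the same UMIs, 102 were in the 292 cells with markers of the supporting-like lineage and 78 in the 251 cells with progenitor markers. At E10.5, Hhip was spread over tissues outside the gonad, with 10.0 in the 523 cells with sclerotome markers and 8.62 in those with splanchnic markers.

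The comparison of the Pdgfra gate with the Sox9 or Amh gate asks how the ligand and the response genes divide between these gates. Cells in both gates were left out of it. The Sox9 or Amh gate is not read as Sertoli cells at E10.5. At D6, its cells without Pdgfra held Nr2f2 in 77.5% and Amh in 30.3%, so that its sides are not read there as interstitial and supporting cells. At E12.5, Dhh was almost wholly on the Sox9 or Amh side, with 1802 UMIs against 7, and the log2 ratio of the Pdgfra gate to the Sox9 or Amh gate was -8.15 (-9.47 to -7.11). Gli1 (2.57, 2.05 to 3.12), Hhip (2.50, 2.12 to 2.91), Gli2 (2.36, 1.76 to 3.01), and Gli3 (1.27) were at least 2-fold higher on the Pdgfra side. Smo (0.76, 0.57 to 0.96) and Ptch1 (0.43, 0.27 to 0.58) were higher by less. Thus 4 of the 7 members with at least 50 UMIs were at least 2-fold higher in the Pdgfra gate and 1 was lower, beside 9.58% higher and 11.2% lower among all 10808 genes with as many UMIs. Ptch1 divided far less than Gli1 and Hhip did.

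At E11.5 the ligand was also almost wholly on 1 side. Dhh had 641 UMIs on the Sox9 or Amh side and 1 on the Pdgfra side, a log2 ratio of -8.92 (-14.22 to -6.43). The size of this ratio depended on how the gates were taken, and was -2.38 (-3.74 to -1.28) when they were taken again in cells thinned to 2000 UMIs. Gli1 (1.82, 1.01 to 2.69) and Gli2 (1.90) were at least 2-fold higher in the Pdgfra gate. These were 2 of 6 members with at least 50 UMIs, with 1 lower, beside 6.84% higher and 9.28% lower among all 10123 genes. Gli3, with a 1.995-fold difference, was just below the 2-fold limit. Ptch1 was higher on the Sox9 or Amh side, at -0.70, with an upper bound of -0.40, and Hhip rested on 3 UMIs on each side. In thinned cells with the gates kept, the ratio of Ptch1 was -0.30 (-1.08 to 0.45), an interval that includes 0, as did that with the gates taken again.

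At D6, Dhh had 28 UMIs on the Sox9 or Amh side and 0 on the Pdgfra side, at least 18.2-fold lower in the latter against a floor of 3 UMIs. Its level of 20.7 CPM had an interval of 13.8 to 30.0, and that of the count of 0 reached 1.40. The 90 cells of both gates, left out here, held 11 Dhh UMIs, at 19.6 CPM (9.80 to 35.1). The whole Pdgfra gate also held 11, at 3.44 CPM. Ptch1 (1.16, 0.75 to 1.60) and Gli2 (1.49, 0.39 to 2.79) were at least 2-fold higher in the Pdgfra gate, 2 of 5 members with enough UMIs, and 0 of the 5 were lower. Among all 8503 genes, 3.65% were higher and 4.21% lower. Gli1 stood at 0.96 (0.26 to 1.73), and the intervals of Hhip (-1.17 to 2.25) and Smo (-0.15 to 0.56) included 0. At E10.5, the intervals of all members but Shh included 0 where a ratio could be computed, and Dhh had 0 UMIs on both sides. Shh had 19 UMIs in the Sox9 or Amh gate and 1 in the Pdgfra gate (-4.48, -9.86 to -1.83).

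**Figure D3:**
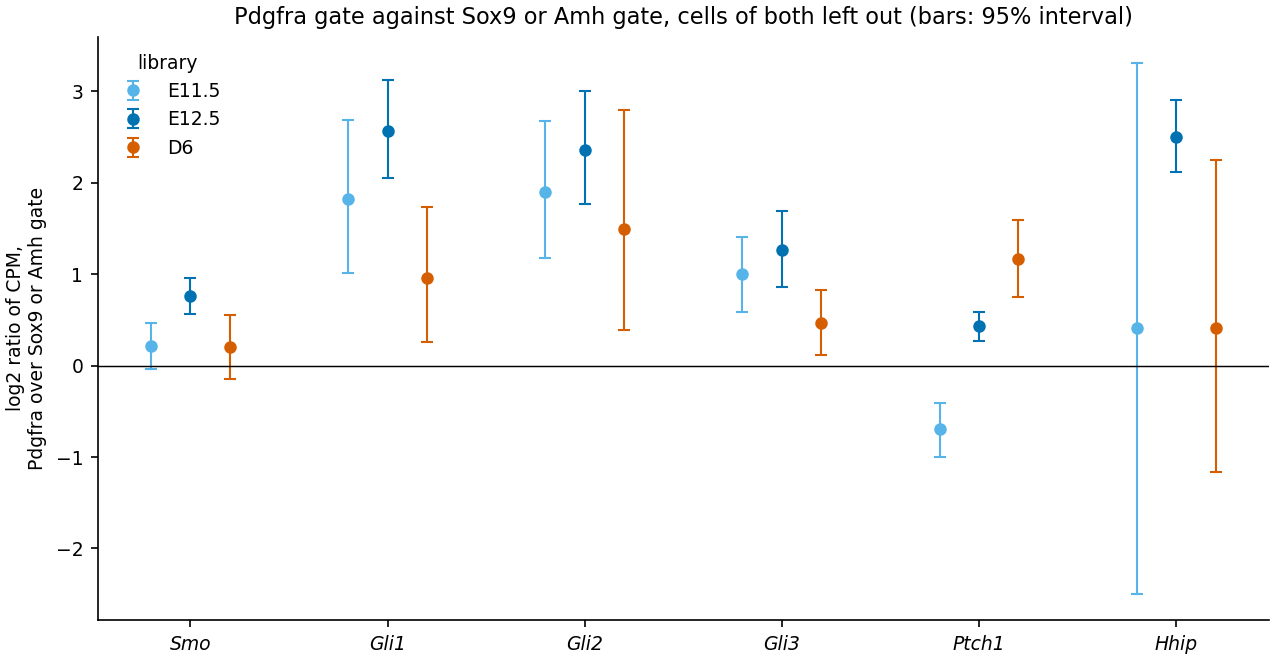
Log2 ratio of the Pdgfra gate to the Sox9 or Amh gate for Smo, Gli1, Gli2, Gli3, Ptch1, and Hhip at E11.5, E12.5, and D6, with exact 95% intervals of counting error; cells in both gates are left out, and values above 0 are higher in the Pdgfra gate. Gli1 and Gli2 lie above 0 in all 3 libraries, and Ptch1 goes from -0.70 at E11.5 to 0.43 and 1.16 at E12.5 and D6.

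At E12.5, the cells that held both gates carried the highest levels of Ptch1 and Hhip. Ptch1 was at 70.7 CPM in the 705 cells with Sox9 or Amh and no Pdgfra, at 146.1 (134 to 159) in the 289 cells of both, and at 95.1 in the 814 cells with Pdgfra alone. Hhip was at 7.88, 74.8 (66.2 to 84.2), and 44.7 in the same order. Gli1 was at 4.31, 22.5, and 25.5, and Dhh at 221.8, 28.5, and 0.780. In markers that are not gate genes, the cells of both gates lay nearer to the Pdgfra side. Nr2f2 was at 57.0, 277.2, and 351.9 in the same order, and the interstitial gene Tcf21 at 38.8, 180.2, and 244.0. Ptgds was at 1065.7, 151.2, and 3.01. Amh was at 786.1, 105.9, and 0, where the 0 was set by the gate. Doublet marks were more frequent in them, with 7.27% marked against 0.709% and 2.95%, and their median depth was 11917 UMIs against 10595 and 9712. The part of doublets and depth in these levels was not tested. In the other libraries the cells of both gates were not highest in Ptch1, which stood at 44.7, 37.1, and 27.6 at E11.5 and at 43.7, 66.1, and 97.8 at D6 in the same order.

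The Sox9 or Amh gate was also divided into cells with and without a UMI of Dhh. At E12.5, the 527 cells with Dhh held Ptch1 at 70.1 CPM and the 467 cells without at 121.1, a log2 ratio of -0.79 (-0.96 to -0.61). Gli1 was at 1.28 against 19.7 (-3.94, -5.19 to -2.91), Gli2 at 0.80 against 15.6, and Hhip at 1.44 against 59.3 (-5.36, -6.50 to -4.42). In the Dhh cells, Gli1 and Hhip were no higher than in cells with germ cell markers, some of which also held a gate gene. Ptch1 in the Dhh cells was well above the 25.1 of those germ-marker cells. Amh was at 1003 against 93.9 and Nr2f2 at 21.8 against 241.8, so that Sertoli and mesenchymal markers went with the same division. Gli3 (-1.25) and Smo (-0.55) were lower in them by less than Gli1, Gli2, and Hhip. Their median depth was 10798 UMIs against 10941, so that depth was close between the groups.

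**Figure D4:**
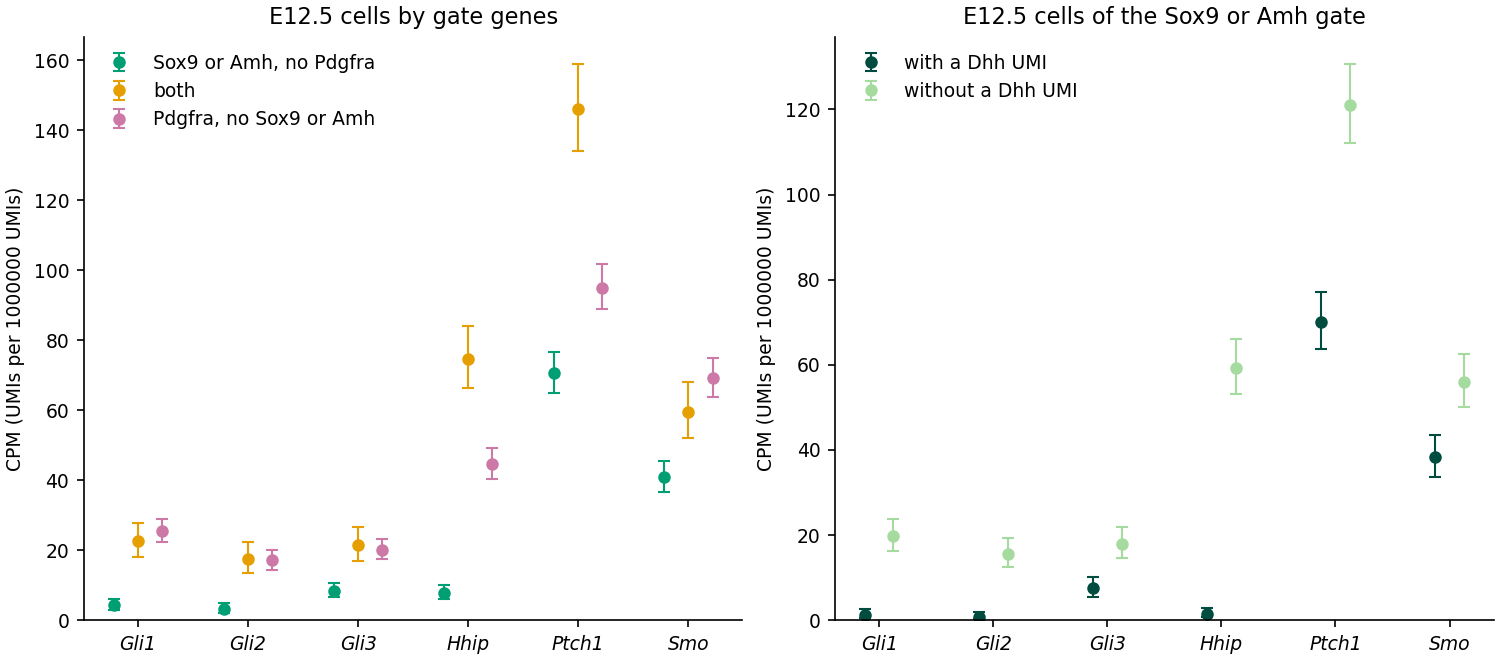
Levels of 6 members at E12.5, in CPM with exact 95% intervals of counting error. The left panel shows cells with Sox9 or Amh only, of both gates, and with Pdgfra only, where Ptch1 (146.1) and Hhip (74.8) are highest in the cells of both gates, and the right panel shows cells of the Sox9 or Amh gate with and without a UMI of Dhh, where all 6 genes are lower in the Dhh cells.

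At E11.5 the Dhh cells of the gate were the higher in Ptch1, at 55.6 CPM in 302 cells against 33.3 in 484 cells without (0.74, 0.46 to 1.02). Gli1 was at 0.744 against 5.96 and Gli2 at 0.496 against 7.12, so that Ptch1 was higher and these Gli genes lower in the Dhh cells. Hhip had 0 UMIs in the Dhh cells. At D6, the 22 Dhh cells held Ptch1 at 90.4 against 46.4 in 299 cells (0.96, 0.06 to 1.77). Gli1 was at 6.03, from 1 UMI, against 15.5, and its interval included 0 (-1.36, -6.72 to 1.24). The median depth was 7929 UMIs in the Dhh cells against 5224. This division was added after the data had been seen and carries no test.

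In the Pdgfra gate of E12.5, Hhip and Gli1 were found more often in cells with Ptch1 than in cells without it, and Hhip also after thinning. A UMI of Gli1 was found in 29.9% of the 585 cells with Ptch1 and in 15.4% of the 518 cells without, at median depths of 11523 and 9221. After thinning, with Ptch1 also taken again, the shares were 5.52% of 181 and 6.07% of 922 cells. The first share rests on 10 cells, and cells that lost their Ptch1 UMIs were counted as without. These shares therefore cannot decide whether the difference holds at equal depth. Hhip was found in 41.9% of the cells with Ptch1 and 10.6% of those without, and in 16.0% and 8.79% of the thinned cells. Ptch1 in turn was found in 81.7% of the 300 cells with Hhip and in 42.3% of the 803 cells without, and in 26.4% and 15.3% after thinning. Gli1 was found in 35.0% of the cells with Hhip and 18.7% of those without, and in 10.0% and 5.54% after thinning. This 10.0% rests on 11 of 110 cells, and cells that lost their Hhip UMIs were counted as without. These shares too cannot decide whether the difference in Gli1 holds at equal depth.

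At least 1 of Ptch1, Gli1, and Hhip was found in 28.0% of the thinned Pdgfra cells at E12.5 and in 21.0% at D6, against 8.40% at E10.5 and 9.77% at E11.5. In the Sox9 or Amh gate the shares were 8.10%, 8.85%, 18.8%, and 12.2%, and in the Upk3b gate 4.84%, 4.75%, 10.9%, and 11.3%. The Cyp11a1 gate of D6 was at 6.38%. In each of the Pdgfra, Sox9 or Amh, and Upk3b gates, E12.5 was higher than E11.5.

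The Pdgfra cells with Hhip at E12.5 also differed from the rest of the gate in other genes, in a description added after the data had been seen. Ptch1 was at 203.4 CPM in the 300 cells with Hhip and at 70.7 in the 803 cells without (log2 ratio 1.52, 1.37 to 1.68), and Gli1 at 36.6 against 19.6 (0.90, 0.57 to 1.23). Smo was lower (-0.30, -0.53 to -0.07), and the interval of Gli2 included 0 (0.41, -0.01 to 0.82). Among the genes with the highest ratios were Sct, the gut hormone secretin (155.0 against 31.6), the transcription factor Osr2 (131.5 against 27.4), and Cyp26b1, an enzyme that degrades retinoic acid (39.8 against 10.9). Star, which carries cholesterol into mitochondria for steroid synthesis, was at 15.5 against 5.38, and the collagen gene Col1a1 at 34.5 against 80.2. Ren1, the gene of renin, was at 337.05 against 95.7. The median depth was 11931 UMIs in the cells with Hhip and 9808 in the cells without.

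**Figure D5:**
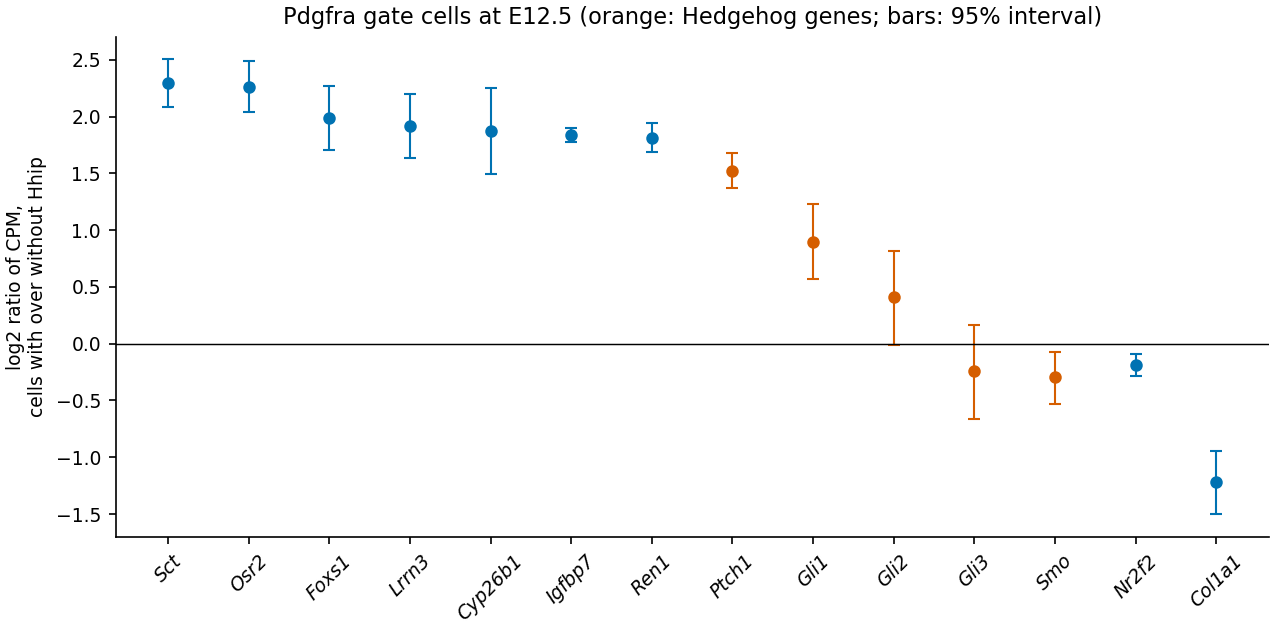
Log2 ratio of Pdgfra-gate cells with a UMI of Hhip to those without at E12.5, for members in orange and other genes in blue, with exact 95% intervals of counting error. Ptch1 (1.52) and Gli1 (0.90) lie above 0, Smo (-0.30) lies just below 0, and Col1a1 (-1.22) is lower in the cells with Hhip.

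Across all cells from E11.5 to E12.5, 3 of the 7 members with at least 50 UMIs were at least 2-fold higher (Ptch1, Gli1, and Hhip) and 0 were 2-fold lower, beside 3.81% higher and 3.36% lower among all 13190 genes. Gli1 was higher by 1.41 (1.11 to 1.72) on the log2 scale, Dhh by 0.78, Gli2 by 0.45, and Smo by 0.22. Within the Pdgfra gate the same 3 members were at least 2-fold higher and Dhh was lower, beside 2.31% higher and 3.34% lower among all 11062 genes. There, Hhip had a log2 ratio of 6.81 (5.45 to 8.69), Gli1 of 1.59 (1.21 to 1.99), Gli2 of 0.77, Smo of 0.51, Gli3 of -0.07, and Dhh of -1.0003 (-1.37 to -0.64). Of the Dhh UMIs in the Pdgfra gate, 148 of 149 at E11.5 and 105 of 112 at E12.5 were in cells that were also in the Sox9 or Amh gate. In the Sox9 or Amh gate, Dhh had a log2 ratio of 1.04 (0.92 to 1.16), Hhip of 6.18, and Gli1 of 1.37. At E12.5, 276 of this gate's 340 Hhip UMIs and 83 of its 118 Gli1 UMIs were in cells also in the Pdgfra gate. Gli1 in cells of no other gate was at 2.84 CPM (1.59 to 4.69) at E11.5 and 3.52 (2.30 to 5.16) at E12.5. These intervals overlap. Hhip in the same cells was at 0.57 (0.12 to 1.66) and 8.39 (6.44 to 10.8).

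Between E10.5 and E11.5, Dhh was higher by 8.47 on the log2 scale (6.92 to 10.75, with 3 UMIs at E10.5) and Hhip lower, at -3.60 (-4.69 to -2.68), while Ptch1 (0.13, -0.01 to 0.27) and Gli1 (-0.10) did not differ within their intervals. Smo was at -0.54 and Shh at -5.64 (-10.97 to -3.12, with 1 UMI at E11.5). The tissue dissected differs between these libraries, and stage and tissue cannot be told apart.

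The comparison of D6 with E12.5 sets the ESC-derived cells beside the gonad, and shares the E12.5 library with the comparison above. Ptch1 did not differ within its interval over all cells (0.04, -0.07 to 0.15), whereas Dhh (-3.72, -4.15 to -3.32) and Hhip (-2.99) were lower at D6 and Gli3 was higher (2.15, 1.99 to 2.30). Gli1 (0.62), Gli2 (0.61), and Smo (0.66) were higher by less than 2-fold. Of 7 members, 1 was at least 2-fold higher and 2 were lower, beside 27.8% higher and 10.8% lower among all 13196 genes, whose median log2 ratio was 0.32. The median gene was thus itself higher at D6. With TMM scaling (trimmed mean of M values), which lowers every ratio of this comparison by 0.47, 16.8% of the genes were higher and 20.7% lower, and the same members were past 2-fold, Gli3 higher and Dhh and Hhip lower. On that scale the log2 ratio of Ptch1 was -0.44, and those of Gli1, Gli2, and Smo were 0.15, 0.14, and 0.19. Without the cells of other types, the ratio of Ptch1 was -0.30, so that its direction was not the same under each setting.

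Within both main gates, Hhip was likewise lower and Gli3 higher at D6 than at E12.5. In the Sox9 or Amh gate, Dhh was at -2.98 (-3.48 to -2.53), Ptch1 at -0.91, Hhip at -2.46, and Gli3 at 2.44. This gate held Amh in 82 of 321 cells at D6 and in 641 of 994 cells at E12.5. In its cells with both Sox9 and Amh, Dhh was at 83.9 CPM at D6 and 277.9 at E12.5. The part of this make-up of the gate in the ratios was not tested. In the Pdgfra gate, Hhip was at -3.25 (-4.01 to -2.58), Gli3 at 2.10, and Ptch1 at -0.25 (-0.44 to -0.07). Gli1 was at 0.14 (-0.22 to 0.49) and Smo at 0.31 (0.11 to 0.51). With TMM scaling, the signs of Gli1 and Smo turned, to -0.32 and -0.15. In the Upk3b gate, Gli1 was lower at D6 (-1.06, -2.27 to -0.03) and Gli3 higher (1.38). Smo did not differ there within its interval (-0.06, -0.40 to 0.27). In the 298 cells of the Cyp11a1 gate of D6, Ptch1 was at 28.5, Gli1 and Gli2 at 3.00 each, Hhip at 0.50, and Dhh at 7.01 CPM. These were the lowest values of Ptch1, Gli1, Gli2, and Hhip among the gates of D6, although for Gli1, Gli2, and Hhip the intervals overlap those of the Upk3b gate, and for Gli2 and Hhip also those of the Sox9 or Amh gate.

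Other genes of the pathway, 36 in all, were compared in the same way. At E12.5, 22 of them had at least 50 UMIs, and 4 were at least 2-fold higher in the Pdgfra gate and 1 lower, beside 9.58% and 11.2% of all genes. Boc, a co-receptor, was at 14.2 against 4.74 CPM (1.60, 1.06 to 2.16), Gas1, another co-receptor, at 111.1 against 34.2 (1.70), Evc, a ciliary protein that binds SMO, at 6.35 against 2.59 (1.30), and Gpc3, a glypican that binds ligand, at 911.7 against 235.4 (1.95). Scube3, of a family of proteins that aid ligand release, was lower, at 1.56 against 8.25 (-2.40). At E11.5, 3 of 21 were higher and 2 lower, beside 6.84% and 9.28% of all genes, and at D6, 3 of 20 were higher and 0 lower, beside 3.65% and 4.21%. From E12.5 to D6, 15 of 27 were higher over all cells and 0 lower, in the comparison where 27.8% of all genes were higher. With TMM scaling, 9 of the 27 were higher and 1 lower, beside 16.8% and 20.7% of all genes.

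Genes whose levels were most like those of a member were sought by Pearson's r over 17 groups of cells, the exclusive gates and the cells of no gate in each library, which share library and depth. For Dhh these were Shbg (0.997), Bricd5 (0.996), Etd (0.994), Tesc (0.993), and Map3k21 (0.991). For Ptch1 they were Sept11 (0.916), Pltp (0.852), Mylk (0.842), Prickle1 (0.837), and Pde5a (0.822). The 5 values for Dhh were all higher than the 5 for Ptch1. Outside the Sox9 or Amh groups, however, Dhh was under the 10 CPM added to each level before the log2, so that its r rests on few groups. For Gli1 they were Bicc1 (0.908), Col1a2 (0.897), Arhgef25 (0.896), Neil3 (0.894), and St8sia2 (0.893), and for Hhip they were Trac (0.883), Ntng1 (0.867), Lrrn3 (0.856), Casq2 (0.837), and Ppbp (0.828). No member was among the 5 genes most like another member. With a pseudocount of 1 in place of 10 CPM, 2 of the 5 were kept for Dhh, Gli1, and Hhip each and 5 for Ptch1, and with overlapping gates 3, 1, 4, and 3 were kept for Dhh, Gli1, Hhip, and Ptch1.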

How the data were processed

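The data are 4 single-cell libraries of mouse XY cells made with Chromium 3′ kits, version 2 in vivo and version 3 at D6. The authors deposited UMI counts per gene and cell barcode, made with Cell Ranger on mm10, without normalization. The labels give version 3.0.2 and the file headers 6.0.0. The limits of the methods on a cell were 1000 to 4000 genes and 10% of UMIs from mitochondria (E10.5), 500 to 5000 genes and 20% (E11.5), 2000 to 5000 genes and 8% (E12.5), and 1000 to 4000 genes and 12% (D6). This left 3837 of 4473, 2101 of 2449, 2764 of 3176, and 2285 of 2441 barcodes.

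UMI counts were summed over the cells of a library or gate and divided by total UMIs (CPM). Levels carry exact Poisson intervals, shares exact Clopper-Pearson intervals, and ratios of sums exact conditional binomial intervals, at 95%. A count of 0 allows 3 UMIs or cells. With 1 library per condition, no test was run and no p-value is given. The share of all genes at least 2-fold apart, among those with at least 50 UMIs, stands beside the members' counts. Cells with markers of another type held at least 2 UMIs of its marker list. Thinned cells held 2000 UMIs, and 6, 209, 0, and 16 shallower cells were left out in the same order. Likeness used the log2 of CPM with a pseudocount of 10, groups of at least 50 cells, and 11789 genes with at least 200 UMIs. Doublets were scored with Scrublet in scanpy 1.11.5, and the highest scores at an expected 0.8% per 1000 cells were marked and left in. The ratio step was tested on simulated data. Scripts ran in Python 3.11.15, and used scipy 1.17.1 for intervals, matplotlib 3.10.9 for figures, and pandas 2.3.3 and numpy 2.4.6 for tables.

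The members, gates, gene lists, and comparisons were chosen with earlier results of these data known. The members are always named, with the 5 genes most like each of Dhh, Ptch1, Gli1, and Hhip and the pathway genes at least 2-fold apart between gates at E12.5. 1 gene of the pathway lists is not reported here, and the counts leave it out. The genes named for cells with Hhip were chosen after their values were seen. The division by cells of both gates, by Dhh, by Amh, and by Hhip was added after the data were seen. The alternatives were no cell filter, the same filter in every library, no doublets, no cells of other types, a gate of 2 UMIs, exclusive gates, thinning with the gates taken again or kept, TMM scaling, other limits on low counts, and, for likeness, another pseudocount and overlapping gates.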

Additional observations from a re-analysis of the deposited data

Results flagged for a closer look

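The log2 ratio of Ptch1 between the Pdgfra gate and the Sox9 or Amh gate changed sign between libraries. It was -0.70 at E11.5, and 0.43 and 1.16 at E12.5 and D6, and the difference between the libraries was not tested, since each is 1 library. In thinned cells with the gates kept, the E11.5 value was -0.30 (-1.08 to 0.45), an interval that includes 0.

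The log2 ratio of Dhh between E12.5 and E11.5 had opposite signs in the gates, at 1.04 in the Sox9 or Amh gate and -1.0003 in the Pdgfra gate. This difference was not tested either. Most Dhh UMIs of the Pdgfra gate were in cells that were also in the Sox9 or Amh gate, and with exclusive gates the value of the Pdgfra gate was 1.41 (-1.75 to 6.98).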

How the results depend on the processing

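The 14 main ratios were computed under 9 alternatives, which gave 123 values. Between the gates, they were Dhh at E11.5 and E12.5, Ptch1 at E11.5, E12.5, and D6, and Gli1 and Hhip at E12.5. From E11.5 to E12.5, they were Dhh in the Sox9 or Amh gate and Ptch1, Gli1, and Hhip in the Pdgfra gate. From E12.5 to D6, they were Dhh in the Sox9 or Amh gate, Hhip in the Pdgfra gate, and Gli3 over all cells. This set was picked by name, and other ratios changed sign, as given below. All of the 123 kept their sign, 106 stayed inside the counting interval of the reported value and 17 moved out of it, and 3 could not be computed because of a count of 0. For Ptch1 from E11.5 to E12.5 in the Pdgfra gate, the log2 ratio of 1.81 became 1.59 without a cell filter, 2.07 with gates of 2 UMIs, 1.27 in thinned cells with the gates taken again, and 1.31 with the gates kept. For Ptch1 between the gates, the value at E12.5 became 0.59 with gates of 2 UMIs and 0.71 and 0.60 in thinned cells with gates taken again and kept. At D6 it became 1.60 with gates taken again, and at E11.5 -0.30 with gates kept (-1.08 to 0.45), an interval that includes 0. For Dhh between the gates at E11.5, thinning gave -2.38 with gates taken again and -6.18 with gates kept. Dhh from E11.5 to E12.5 in the Sox9 or Amh gate became 1.18 with exclusive gates, and from E12.5 to D6 it became -2.36 with gates of 2 UMIs and -3.50 with TMM scaling. Hhip from E12.5 to D6 in the Pdgfra gate became -4.74 with gates of 2 UMIs and -5.33 in thinned cells with gates taken again, and Gli3 from E12.5 to D6 became 1.67 with TMM scaling, which shifted that comparison by 0.47. The causes were not tested.

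Of 785 values of the other 89 ratios, 60 had the opposite sign, 51 of them for ratios whose counting interval included 0. The other 9 were Dhh (0.57 with gates of 2 UMIs), Smo (-0.15 with TMM scaling), and Ptch1 (0.21 and 0.039 in thinned cells) from E12.5 to D6 in the Pdgfra gate, Gli2 from E11.5 to E12.5 in the Sox9 or Amh gate (-0.11 with exclusive gates, -0.55 thinned) and in the Pdgfra gate (-0.15 thinned), Gli2 from E10.5 to E11.5 in the Sox9 or Amh gate (0.33 thinned), and Dhh from E11.5 to E12.5 in the Pdgfra gate (1.41 with exclusive gates, -1.75 to 6.98).

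With at least 10 UMIs in place of 50, the shares of all genes past 2-fold became 6.41% higher and 8.45% lower between the gates at D6, 6.00% and 6.18% from E11.5 to E12.5, and 4.58% and 6.40% in the Pdgfra gate. With at least 200, the share lower between the gates at D6 became 2.35%, and the others 2.26% and 1.87%, and 1.48% and 1.76%. At that limit, 0 of 4 members were higher in the Pdgfra gate at E11.5, 3 of 6 at E12.5, and 1 of 3 at D6, beside 5.29%, 7.24%, and 3.06% of all genes. With TMM scaling, Gli1 joined Ptch1 and Gli2 past 2-fold at D6 (1.03), which made 3 of 5, beside 4.17% of all genes. Members with few UMIs, such as Shh in every library and Hhip at E11.5, limit what can be compared at this depth. No paired analysis was possible because each condition has 1 library.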
